A study of Mus musculus with 54 samples.

Results

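The promoters described here carried ChIP-seq peak summits of exactly 1 Krüppel-associated box zinc finger protein (KZFP) out of 42 KZFPs whose genes lie in the mouse Chromosome 4 cluster. They were chosen by the measured peak positions. A promoter counted as bound by a KZFP when a summit of that KZFP lay within 1000 bp of the start of a protein-coding transcript of the gene, and promoters with summits in only 1 of the 42 peak lists were kept. The study also drew on published ChIP-seq data for further KZFPs of the cluster. Those were not used here, so exclusive binding is exclusive among the 42 lists only. Genes with symbols beginning Zfp, Zscan, Zkscan, Zbtb or Znf, histone genes and ribosomal protein genes (784 genes) were left out. Zinc finger genes with other symbols stayed in, which left 20797 promoters. Of these, 3264 had summits from exactly 1 KZFP list (15.7%) and 692 had summits from 2 or more lists (3.33%). The one-KZFP promoters were therefore 82.5% of the 3956 bound promoters. They came from 30 KZFPs, and 12 KZFPs had none.

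Each of the 42 libraries came from F9 cells, a mouse embryonal carcinoma line, that over-expressed 1 KZFP with a C-terminal HA tag from an integrated transposon vector under puromycin selection. Chromatin was precipitated with an antibody against HA, and each list was called against the mixed input of its batch and cleared of peaks that overlapped a peak of empty-vector cells, so a peak shared with empty-vector cells could not make a promoter a member. Empty-vector libraries are labelled for batches 1, 2 and 4, so lists of batches 3 and 5 were cleared with empty-vector peaks of other batches only. There was 1 library per KZFP, so no value has a replicate error and intervals cover counting error only. Together the lists held 24975 peaks on chromosomes. The peak lists hold no read totals. By the read numbers the study lists, Zfp982 was the most deeply sequenced of the KZFP libraries, and the part of depth in the number of promoters was not tested. A promoter missing from a list may have fallen under its threshold. The batches differed in how many lists they held (3, 3, 13, 20 and 3 in batches 1 to 5), and 1824, 6, 326, 1074 and 34 of the one-KZFP promoters came from them.

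KZFPs bind DNA through arrays of C2H2 zinc fingers, each of which contacts a few bases, and recruit the corepressor KAP1 (TRIM28), which gathers histone methyltransferases and heterochromatin proteins. They are best known for silencing transposable elements in embryonic cells. Promoters of broadly expressed genes are different sequence: they are mostly unique in the genome and often lie in CpG islands, stretches that kept their CpG dinucleotides.

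Exact copies of a KZFP's own motif were rare at these promoters, and the few sites that did occur are shown first because they are the exceptions. Motifs were those the study derived with MEME from the summits of each list. Sequence is from GRCm39 and is read in the direction of the motif, with the motif in capitals and 25 bases on either side. None of the windows shown here touches an annotated exon. For Zfp982 the motif was AGACCCTCTGG, and 3 of its 6 sites were at Runx3 (chr4:134879660-134879720, plus strand), Fam236d (chrX:101731026-101731086, plus strand) and St3gal4 (chr9:35017491-35017551, plus strand).
Runx3: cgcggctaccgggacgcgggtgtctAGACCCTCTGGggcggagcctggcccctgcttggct
Fam236d: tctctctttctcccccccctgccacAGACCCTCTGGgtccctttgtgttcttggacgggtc
St3gal4: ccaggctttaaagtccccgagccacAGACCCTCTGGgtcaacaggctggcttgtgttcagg
For Zfp_MB016 the sites at Ctxnd2 (chr3:95314142-95314204, plus strand) and Gm61963 (chrX:91282660-91282722, minus strand) lay in nearly the same sequence, with 60 of 63 bases identical.
Ctxnd2: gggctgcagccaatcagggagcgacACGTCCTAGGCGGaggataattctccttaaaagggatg
Gm61963: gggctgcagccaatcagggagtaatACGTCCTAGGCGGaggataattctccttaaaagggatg
For Zfp_MB014 the only site was at Cox7b2 (chr5:71683750-71683814, plus strand), the testis form of a cytochrome c oxidase subunit.
Cox7b2: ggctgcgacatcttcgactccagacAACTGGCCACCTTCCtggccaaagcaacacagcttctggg

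The one-KZFP promoters were held by few KZFPs. Zfp982 had 1823 of them, 55.9% of the total and 8.77% of all promoters examined. Zfp_MB016 had 649 (3.12% of all promoters), Zfp_MB026 had 233 (1.12%), Zfp_MB003 had 150 (0.721%) and Zfp_MB001 had 95 (0.457%). A further 9 KZFPs had between 14 and 54: Zfp_MB014 had 54, Zfp981 had 38, Zfp_MB005 had 34, Zfp_MB028 had 32, Zfp_MB020 had 29, Zfp_MB035 had 25, Zfp_MB023 had 21, Zfp_MB011 had 15 and Zfp_MB013 had 14. The other 16 with any had between 1 and 8. Because Zfp982 was in 1 batch and had 1 library, its large number and its library cannot be told apart. Without the Zfp982 list 1848 promoters had summits from exactly 1 list, of which 1441 were among the 3264.

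**Figure D1:**
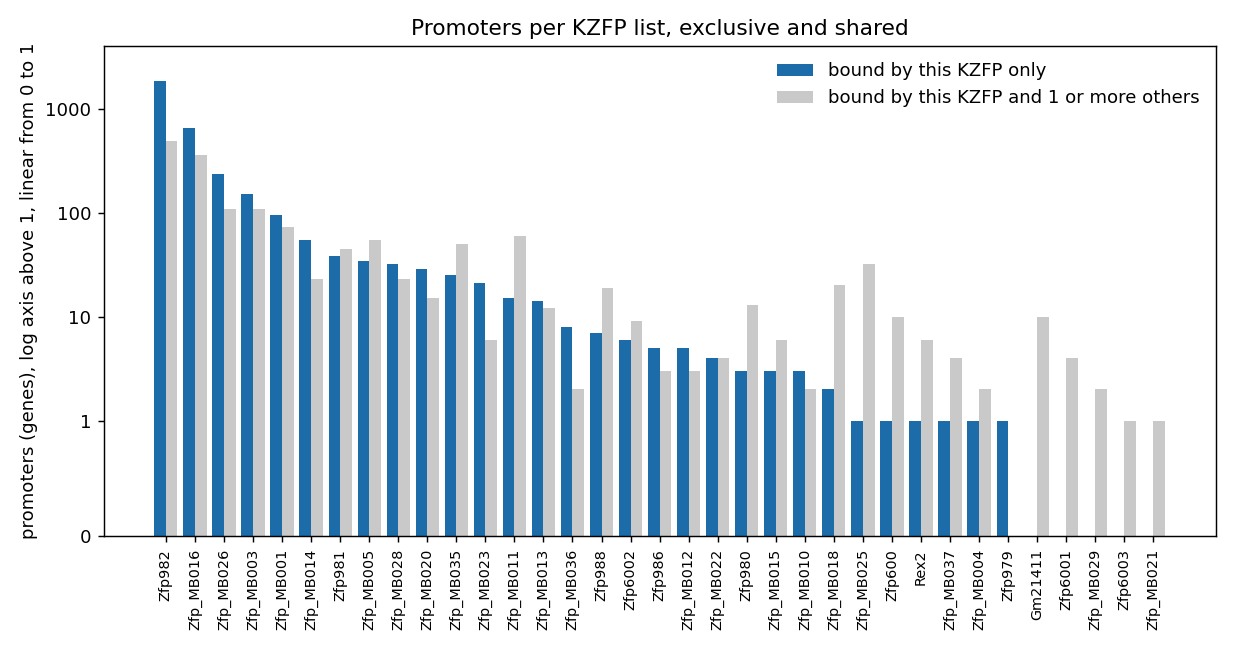
Promoters per KZFP, for the 35 lists with any bound promoter. Blue bars count promoters bound by that KZFP only and grey bars those it shared with 1 or more other KZFPs; the vertical axis is logarithmic above 1. Zfp982 had 1823 exclusive and 490 shared promoters, whereas Zfp_MB025 had 1 exclusive and 32 shared.

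The share of a KZFP's bound promoters that were exclusive varied widely. It was 78.8% for Zfp982, 64.7% for Zfp_MB016, 68.3% for Zfp_MB026, 57.9% for Zfp_MB003 and 56.5% for Zfp_MB001. It was lowest among lists with 30 or more bound promoters for Zfp_MB025 (3.03%, with Ddit4 as the only exclusive promoter) and Zfp_MB011 (20%). Zfp_MB011 and Zfp_MB003 have the same fingerprint array, the DNA-contacting residues of the fingers. When KZFPs with the same array were counted as 1 KZFP, the exclusive promoters numbered 3279.

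Exclusive promoters were also a different fraction of each peak list. In the Zfp982 list 1682 of 4745 summits lay at one-KZFP promoters (35.4%, 95% exact binomial interval 34.1 to 36.8), and in the Zfp_MB003 list 124 of 360 did (34.4%, 29.5 to 39.6). The fraction was 9.48% for Zfp_MB016 (585 of 6170 summits, 8.76 to 10.2), 5.14% for Zfp_MB026 (211 of 4105, 4.48 to 5.86) and 7.55% for Zfp_MB001 (87 of 1152, 6.09 to 9.23). It was 2.11% for Zfp_MB028 (30 of 1423, 1.43 to 3.00). The intervals of Zfp982 and Zfp_MB003 do not overlap those of Zfp_MB016, Zfp_MB026, Zfp_MB001 and Zfp_MB028. They cover counting error within 1 library each, so they cannot show that the KZFPs themselves differ. The Zfp_MB003 list also had a fold enrichment cutoff of 5, whereas the other lists named had 10. The sequence within 1000 bp of a protein-coding start makes up 2.60% of the genome. The 12 KZFPs with no one-KZFP promoter had 21 to 186 peaks, and a count of 0 allows a share of up to 1.61% to 14.3% in those lists. They include Zfp992 and Zfp993 and 4 other KZFPs with the same array (Zfp_MB024, Zfp_MB027, Zfp_MB029 and Zfp_MB031).

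Summits sat close to the start. Positions are given relative to the nearest protein-coding start of the gene, negative upstream. The median distance was 148 bp in either direction, 2160 of the 3264 promoters (66.2%) had the summit within 250 bp, and 1318 (40.4%) had it upstream. These values follow in part from the distance used to choose the promoters. The lists differed in where the summit lay: 73.3% of Zfp982 promoters, 78.0% of Zfp_MB003 promoters and 61.0% of Zfp_MB016 promoters had it within 250 bp, against 47.2% for Zfp_MB026, 48.4% for Zfp_MB001 and 31.2% for Zfp_MB028. Zfp982 summits lay upstream at 641 of 1823 promoters (35.2%), and Zfp_MB026 summits at 142 of 233 (60.9%). At the edge of the rule, 76 members had their summit more than 900 bp from the start, with fold enrichments of 5.01 to 118.8 and a median of 15.3. Another 66 genes had their nearest summit between 1000 and 1100 bp away and were not members, with a median of 14.1.

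**Figure D2:**
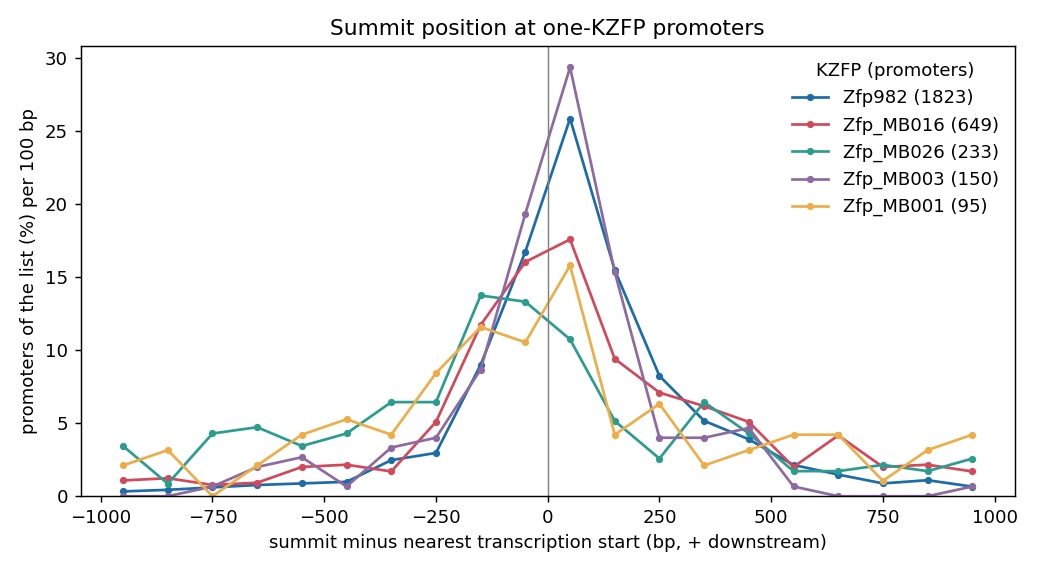
Position of the summit relative to the nearest transcription start at one-KZFP promoters, for the 5 KZFPs with the most of them. Each line gives the percentage of a KZFP's promoters per 100 bp, with positive distances downstream; Zfp982 has 25.8% of its promoters in the first 100 bp downstream and Zfp_MB026 has 10.7% there.

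Many of the summits served a pair of genes. At 272 summits the same summit served 2 or more member genes, which covered 549 members (16.8%), and at 245 of these summits (90.1%) the genes ran on opposite strands. Zfp982 accounted for 143 of them and Zfp_MB016 for 62. Examples are Tmem167 and Xrcc4 (a DNA ligase IV partner in end joining) for Zfp_MB016, Lig4 (DNA ligase IV itself) and Abhd13 for Zfp_MB001, Hspd1 and Hspe1 (the mitochondrial chaperonin and its co-chaperonin) for Zfp982, and Chek2 (a DNA damage kinase) and Hscb for Zfp_MB010. The genes of such a pair are not separate observations. Close starts on opposite strands were not counted over all promoters, so no preference for such pairs can be read from these counts.

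The nearest summit of any other KZFP lay a median of 40296 bp from the members' summits. At 225 promoters (6.89%) another list had a summit within 5000 bp of the member's summit. When a promoter was also required to have no summit of another list within 5000 bp of its start, 2953 of the 3264 were left. For example, the Zfp988 summit at Tpst2 (a tyrosylprotein sulfotransferase) lay 998 bp downstream of the start and 23 bp from a summit of another list, so its membership rests on the 1000 bp limit.

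The strength of the peaks is a description, since fold enrichment over input was part of how the lists were made. Zfp982 members ranged from 10.0 to 185.2, with a median of 15.4, and its 5 highest were Tomm20 (185.2), Sin3b (153.7), Cebpd (148.9), Vps37b (134.6) and Lpin2 (133.0). Tomm20 encodes a receptor of the mitochondrial import pore, Sin3b a scaffold of histone deacetylase complexes, Cebpd a bZIP transcription factor, Vps37b a subunit of the ESCRT-I sorting complex and Lpin2 a phosphatidate phosphatase. The Tomm20 peak (chr8:127671589-127673717) had its summit at -90 bp and was the second strongest of the list. Among the 100 strongest Zfp982 peaks, 44 were at one-KZFP promoters, against 35.4% of the whole list.

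Zfp_MB016 members ranged from 10.0 to 156.6, with a median of 15.8. The highest were Txn1 (156.6, summit at -405 bp), which encodes thioredoxin, Akirin1 (155.0), Coasy (144.3), the coenzyme A synthase, Ncald (134.7), a neuronal calcium sensor, and the pair Tmem167 and Xrcc4 (132.4). Of its 100 strongest peaks 15 were at one-KZFP promoters, against 9.48% of the whole list. Zfp_MB026 held the strongest member of all, Mdn1 (341.8, chr4:32656884-32657731, summit at 91 bp), an AAA ATPase of ribosome assembly. It was followed by Atoh7 (219.9), a transcription factor of retinal ganglion cells, Prickle3 (146.6), T2 (112.0) and Hrh2 (93.4), a histamine receptor. Of the 100 strongest Zfp_MB026 peaks 4 were at one-KZFP promoters, against 5.14% of the whole list. Zfp_MB001 was led by Taf6l (190.3), a TAF6-like subunit of SAGA-type coactivators, Gpatch3 (166.1), the Lig4 and Abhd13 pair (81.2) and Ccnd3 (78.3), cyclin D3.

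Lower lists had single strong members. Zfp_MB014 had Tenm4 (115.6), a teneurin of cell surfaces, Xylt2 (50.9), Syngr2 and the overlapping Gm20708 (45.4) and Osbpl7 (43.8). Zfp_MB005 had Errfi1 (51.1), an inhibitor of EGF receptor signalling, Phtf1 (48.5), Smim15 (43.9), Daglb (43.4) and Pycard (42.3), the ASC adaptor of inflammasomes. Zfp_MB020 had Ankrd46 (49.1), Tesk1 (47.3), Pgls (30.5), Slco2a1 (29.6) and Mecom (27.6). Zfp_MB023 had Tmem41a (46.1), Bpnt1 (31.2), Six3 (19.9), Cdc16 (18.6) and Mpp7 (17.4). Zfp_MB028 had Snhg4 (25.9), Fgf8 (24.3), Tpm4 (21.7), Dhx34 (21.4) and Gm8122 (18.7), and Zfp_MB035 had Cables2 (25.6), Psmd3 (18.7), Socs6 (17.7) and Naa16 (14.4). The strongest of these, Tenm4, was still weaker than the leading members of the Zfp982, Zfp_MB016, Zfp_MB026 and Zfp_MB001 lists.

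Among KZFPs with fewer than 10 exclusive promoters, the highest were Ptprg (72.8) and Pot1a (48.8), a telomere-binding protein, for Zfp_MB036. Zfp_MB012 had Etv6 (61.7), an ETS-family repressor, and Atf7ip (16.0). Zfp986 had Focad (57.8) and Natd1 (50.2). Zfp6002 had Gal3st2b (27.1) and Helz2 (23.3), Zfp_MB022 had Rpe (20.8) and Cdc20 (18.3), Zfp988 had Tpst2 (16.5) and Sbf1 (14.1), and Zfp_MB010 had the Chek2 and Hscb pair (14.8). Apart from Ddit4 (14.1) of Zfp_MB025, the rest with a cutoff of 10 were near it: Zfp_MB015 had Pim2 (10.1) and the Gid8 and Dido1 pair (10.1), Zfp_MB018 had Alyref2 (10.6) and Nme1nme2 (10.0), Zfp_MB037 had Rbm25 (10.9) and Rex2 had Ipo9 (10.4). In total 2286 of the 3264 members (70.0%) had less than 2 times the fold enrichment cutoff of their list. The same share over all peaks is not given here, so members cannot be called weaker than other peaks. The median was 15.4 among members and 16.1 in the whole list for Zfp982, and 15.8 and 16.9 for Zfp_MB016. For Zfp_MB026 it was 16.1 and 17.1. In some lists it was higher among members, as for Zfp_MB014 (18.6 and 16.3).

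In 10 of the 42 lists the cutoff was a fold enrichment of 5 in place of 10, and 223 members came from these. Zfp_MB003 members ranged from 5.00 to 8.20, led by Trmo (8.20), Arhgef17 (7.62), Snx12 (7.21), Polr2m (7.21) and Rlf (6.97). Zfp981 members ranged from 5.02 to 6.27, led by Syn3 (6.27), Casz1 (6.26), Tvp23b (5.96), Nefm (5.96) and Ap1ar (5.92). Zfp_MB011 was led by Trappc9 (6.15), Nap1l5 (5.66) and Slc35a3 (5.58), with the 1110059E24Rik and Abhd17b pair at 5.52, and Zfp_MB013 by Plekhb2 (8.59), Esco1 (7.71), Hif1an (6.88), Ppm1l (6.75) and Phaf1 (6.34). Zfp980 had Zc3h12c (6.01) and Wdr43 (5.34), and Zfp600, Zfp_MB004 and Zfp979 had 1 each, Ftl1 (6.39), Bag6 (6.02) and Ifna13 (5.41). With a fold enrichment of 10 or more required in every list, 3154 promoters had exactly 1 KZFP, 3041 of them among the 3264.

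The sequence under these summits was then compared with that under other summits of the same KZFP. Each KZFP with 5 or more summits at one-KZFP promoters gave 1 value per class, and the differences were tested over KZFPs with a two-sided sign-flip permutation test, adjusted over 4 tests by the Benjamini-Hochberg method. The sequence measures were not used to choose the promoters.

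Exact copies of the KZFP's own MEME motif were rare. Of 2981 summits at one-KZFP promoters of the lists with a motif, 13 had an exact copy within the 200 bp window around the summit, at 13 genes and for 5 KZFPs. Averaged over 19 KZFPs the share was 0.164% ± 0.496 at one-KZFP promoters and 22.6% ± 18.1 at peaks more than 1000 bp from any protein-coding start (SD, n = 19 KZFPs). The difference was -22.4 percentage points and had the same sign in all 19 KZFPs (adjusted p = 4.0e-05, permutation test, from the smallest p these permutations can give). Within batch 3 it was -14.4 points over 9 KZFPs (p = 0.00391, exact sign-flip test) and within batch 4 -28.4 points over 6 KZFPs (p = 0.03125, exact sign-flip test), each the smallest p that number allows. The motifs were derived from the same lists, in which most peaks lay away from promoters, so the share there is not independent of the motif.

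For Zfp982, 6 of 1682 summits at one-KZFP promoters had the motif (0.357%, exact interval 0.131 to 0.775), against 980 of 2528 away from promoters (38.8%, 36.9 to 40.7). For Zfp_MB016 it was 4 of 585 (0.684%, 0.187 to 1.74) against 2415 of 5215 (46.3%, 44.9 to 47.7). For Zfp_MB026 it was 0 of 211, which allows a share of up to 1.42%, against 980 of 3775 (25.96%). For Zfp_MB028 it was 0 of 30, which allows up to 10.0%, against 1000 of 1371 (72.9%). The choice of motif changed the Zfp_MB026 value: its shorter RCADE motif, TGGCAA, was in 75 of 211 windows (35.5%), against 58.3% away from promoters and 9.93% of all promoters. The RCADE motif of Zfp982, GCCGCAGAC, was in 31 of 1682 windows (1.84%), against 25.9% away from promoters. Promoters as a whole held these motifs even more rarely. Among 200 bp windows centred on the first start of each of the 20797 genes, 1 held the Zfp982 motif and 1 the Zfp_MB016 motif (0.00481% each). The shares of 0.357% and 0.684% at one-KZFP promoters were higher. Those windows were centred on summits and not on starts, and the difference was not tested.

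Where the motif did occur, repeated sequence was often present. Repeated sequence was measured as the percentage of 24-base words in the window that have 10 or more copies in the genome. It was 100% at Catsper3 (a sperm calcium channel subunit) and Cox7b2, 84.2% at Samd9l and Gm61963, 63.8% at Ctxnd2 and 62.1% at Rpe. It was 28.2% at Fam236d and 25.99% at Serpina5, 0.565% at Pim2, and 0% at the other 4, Runx3, St3gal4, Tmem63b and Xirp1. Those 4 were all Zfp982 promoters with fold enrichments of 11.7 to 18.4.

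Repeated sequence was less frequent at one-KZFP promoters than at peaks away from promoters. The mean over KZFPs was 1.80% ± 2.92 at one-KZFP promoters, against 38.9% ± 22.8 at peaks away from promoters (SD, n = 19 KZFPs). The difference of -37.1 percentage points had the same sign in all 19 (adjusted p = 4.0e-05, permutation test). It was -42.0 points within batch 3 (9 KZFPs, p = 0.00391, exact sign-flip test) and -33.3 within batch 4 (6 KZFPs, p = 0.03125, exact sign-flip test). The 2 classes were defined by distance from a start, and the share in windows of all promoters was not measured. The test therefore cannot tell a trait of one-KZFP promoters from one of promoters in general. Shared promoters had similarly low values: over all summits, 6.40% of windows at one-KZFP promoters and 6.17% at shared promoters had any repeated word, with mean shares of 0.990% and 1.26%, and this difference was not tested. The differences from peaks away from promoters ran from -5.11 points for Zfp988 to -75.5 for Zfp_MB013. Among KZFPs with 5 or more summits, the highest repeat content at exclusive promoters was in Zfp_MB028 (11.7%), where the sites at Gm8122 and Gm8127 had 57 of 58 bases identical. Reads that matched several places equally well had been placed at 1 of them at random, and the part of this in the peaks at such near copies was not tested.

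**Figure D3:**
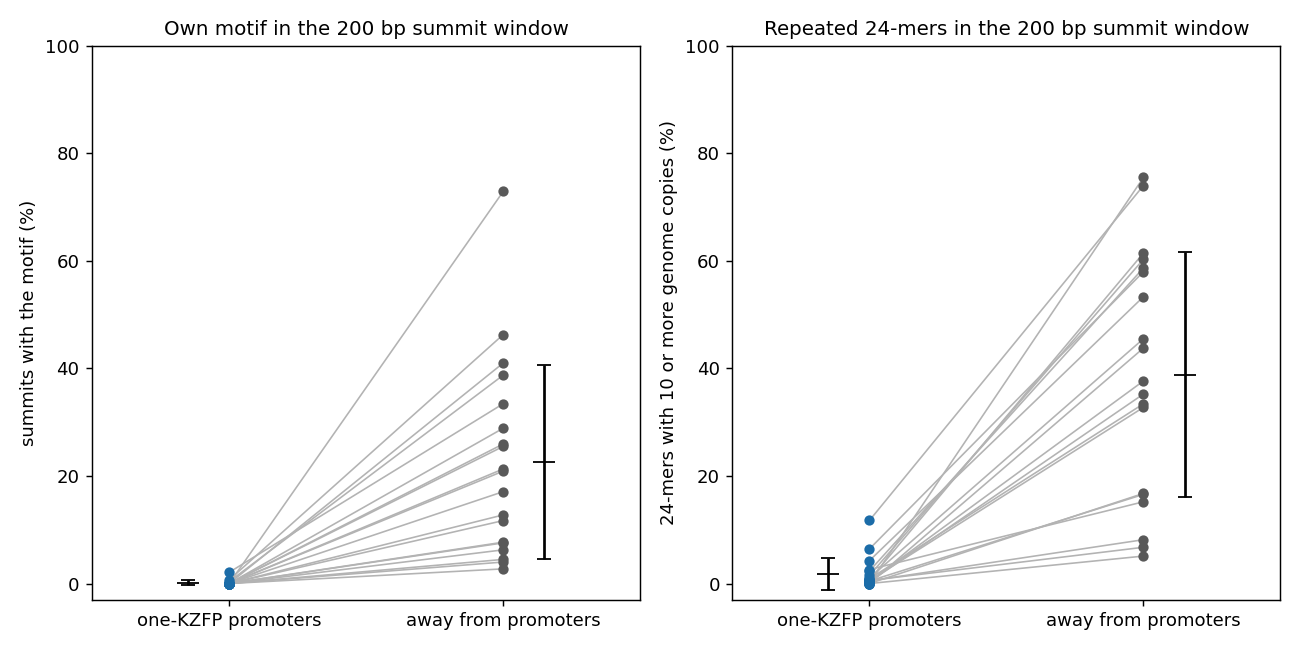
Own-motif share (left) and repeated 24-base words (right) in 200 bp windows around summits. Each pair of points joined by a line is 1 of 19 KZFPs, with its one-KZFP promoters on the left and its peaks away from promoters on the right; black bars give the mean and SD over KZFPs, 0.164 ± 0.496 and 22.6 ± 18.1 for the motif.

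One-KZFP promoters were next set against promoters with summits from 2 or more KZFPs. Averaged over 16 KZFPs with 5 or more summits in both classes, the motif share was 0.195% ± 0.537 at one-KZFP promoters and 0.933% ± 2.30 at shared promoters (SD, n = 16 KZFPs). The difference was -0.737 percentage points, lower in 4 KZFPs, higher in 3 and equal in 9 (adjusted p = 0.374, permutation test). The difference was -1.75 points within batch 3 (7 KZFPs, p = 0.25, exact sign-flip test) and 0.0126 within batch 4 (6 KZFPs, p = 1, exact sign-flip test); the differences over single KZFPs had an SD of 2.43 points. The ratio of observed to expected CpG dinucleotides was 0.635 ± 0.201 at one-KZFP promoters and 0.642 ± 0.182 at shared promoters, a difference of -0.00723 (SD of the differences 0.0590, higher in 8 KZFPs and lower in 8, adjusted p = 0.627, permutation test). Within batch 3 the difference was 0.00264 (7 KZFPs, p = 0.969, exact sign-flip test) and within batch 4 -0.00991 (6 KZFPs, p = 0.719, exact sign-flip test). The differences over single KZFPs ran from -0.112 to 0.0874.

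CpG content differed more between KZFPs than between exclusive and shared promoters of 1 KZFP. The mean ratio at exclusive promoters was 0.851 for Zfp982, 0.868 for Zfp_MB003, 0.972 for Zfp_MB013, 0.870 for Zfp_MB011 and 0.836 for Zfp_MB035. It was 0.672 for Zfp_MB016, 0.514 for Zfp_MB001, 0.476 for Zfp_MB026, 0.438 for Zfp_MB014 and 0.383 for Zfp_MB028. The 4 lists with a cutoff of 5 and 10 or more members, Zfp_MB003, Zfp981, Zfp_MB011 and Zfp_MB013, all lay at 0.709 or above. All 4 were in batch 3, for which no empty-vector library is labelled. The parts of the lower cutoff and of the batch in this were not tested. Around the first start of each gene, 68.1% of one-KZFP promoters had a ratio of 0.6 or more, against 70.7% of shared promoters and 38.8% of promoters without a summit.

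Short words show which sequence recurred within each KZFP's exclusive promoters. Every 8-letter word was counted on both strands in the 200 bp summit windows, and the word whose share most exceeded that in the windows of all 20797 promoters was taken as the leading word. These words were picked from the same promoters, so their shares are a description with no test. CpG-rich promoters are the 9245 windows with a CpG ratio of 0.6 or more.

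In Zfp982 the leading word CCGCCGCC was in 544 of 1682 windows (32.3%), against 32.4% of its windows at shared promoters, 3.80% of its windows away from promoters, 14.3% of CpG-rich promoters and 6.70% of all promoters. It is not part of the Zfp982 motif. The share was 33.7% among the 421 summits with the highest fold enrichment and 33.3% among the 420 with the lowest. The same word was in 7.35% of Zfp_MB016 windows and 1.42% of Zfp_MB026 windows, and in 10 of 25 Zfp_MB035 windows (40.0%). The word SP1 proteins bind, GGGCGGGG, was in 31.5% of Zfp982 windows and 17.5% of all promoters. Its share in CpG-rich promoters was not measured. Strong members with CCGCCGCC clear of exons were Lyst (38.7, lysosome trafficking, chr13:13765259-13765316, minus strand), Gtdc1 (38.5, chr2:44817014-44817071, plus strand) and Sgta (35.4, chr10:80896227-80896284, minus strand), shown with the word in capitals. Tomm20, the strongest member, is shown around its summit (chr8:127672750-127672810, minus strand, summit base in capitals) and has no such word there.
Lyst: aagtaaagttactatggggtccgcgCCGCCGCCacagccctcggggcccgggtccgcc
Gtdc1: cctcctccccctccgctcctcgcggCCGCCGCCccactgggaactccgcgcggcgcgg
Sgta: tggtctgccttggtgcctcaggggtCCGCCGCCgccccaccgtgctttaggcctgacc
Tomm20: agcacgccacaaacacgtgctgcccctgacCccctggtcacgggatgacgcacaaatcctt

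In Zfp_MB016 the leading word GTCCTAGG, the middle of the Zfp_MB016 motif, was in 77 of 585 windows (13.2%), against 13.4% at shared promoters, 66.9% away from promoters, 0.562% of CpG-rich promoters and 0.635% of all promoters. The 6 bases CCTAGG alone were in 194 of 585 windows (33.2%), against 27.1% at shared promoters, 75.3% away from promoters and 5.78% of all promoters. Allowing up to 2 mismatches, 66 of 585 windows matched the whole motif (11.3%) and 0.587% of all promoters did. The share with GTCCTAGG was 13.6%, 17.8%, 12.3% and 8.90% in 4 equal groups ordered from the highest to the lowest fold enrichment. The motif of Zfp_MB005 contains the same letters, and 0 of its 33 exclusive summits had the word, which allows a share of up to 9.09%. Strong members with the word clear of exons were Anapc7 (115.5, a subunit of the anaphase-promoting complex, chr5:122560193-122560250, minus strand), Ogfr (47.4, an opioid growth factor receptor, chr2:180231671-180231728, minus strand) and Rnf207 (47.0, chr4:152403562-152403619, plus strand). Beyond the 8 letters these 3 sites can be read against the full sites of Ctxnd2 and Gm61963 above.
Anapc7: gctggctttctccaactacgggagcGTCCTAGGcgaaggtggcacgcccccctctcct
Ogfr: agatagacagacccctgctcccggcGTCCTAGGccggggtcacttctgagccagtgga
Rnf207: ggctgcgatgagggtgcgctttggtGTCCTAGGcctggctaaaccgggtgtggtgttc

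In Zfp_MB026 the leading word GGCAAGAA was in 30 of 211 windows (14.2%), against 8.74% at shared promoters, 9.06% away from promoters, 0.519% of CpG-rich promoters and 0.822% of all promoters. The same word was in 5 of 30 Zfp_MB028 windows (16.7%), and in 3.57% or less of the windows of the other 10 KZFPs compared. The Zfp_MB028 windows with the word include those of Gm8122 and Gm8127, which had 57 of 58 bases identical. These are not separate observations. The RCADE motif TGGCAA, from a method that combines the finger sequence with the peaks, was in 44.7% of its windows at shared promoters. The longer MEME motif had no window within 2 mismatches among the 211. Strong members with GGCAAGAA clear of exons were Birc3 (53.6, an inhibitor of apoptosis, chr9:7871846-7871903, plus strand), Fbxo9 (36.7, an F-box protein, chr9:78015234-78015291, plus strand) and Acacb (30.1, an acetyl-CoA carboxylase, chr5:114293852-114293909, plus strand).
Birc3: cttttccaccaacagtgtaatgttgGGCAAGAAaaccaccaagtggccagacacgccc
Fbxo9: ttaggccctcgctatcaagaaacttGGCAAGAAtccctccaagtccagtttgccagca
Acacb: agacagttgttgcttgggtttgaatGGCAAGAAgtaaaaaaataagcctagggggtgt

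In Zfp_MB001 the leading word CTCCCACC, which lies within its RCADE motif, was in 14 of 87 windows (16.1%), against 19.12% at shared promoters, 16.2% away from promoters, 2.96% of CpG-rich promoters and 2.67% of all promoters. In Zfp_MB020 the leading word CTGCAGCA, part of its MEME motif, was in 11 of 28 windows (39.3%), against 50.0% at shared promoters, 32.4% away from promoters and 1.84% of all promoters. With 1 mismatch allowed, 6 of the 28 windows matched the whole Zfp_MB020 motif (21.4%) and 29.7% of windows away from promoters did. In Zfp_MB035 the leading word GCCGGGCC, not part of its motif, was in 12 of 25 windows (48.0%), against 17.4% at shared promoters, 0.263% away from promoters, 4.92% of CpG-rich promoters and 2.48% of all promoters. The sites shown are Abhd13 for Zfp_MB001 (81.2, the site in the Lig4 pair, chr8:10026606-10026663, plus strand), Ihh for Zfp_MB020 (24.3, the hedgehog ligand, chr1:74990893-74990950, plus strand) and Katnbl1 for Zfp_MB035 (13.7, chr2:112209745-112209802, plus strand).
Abhd13: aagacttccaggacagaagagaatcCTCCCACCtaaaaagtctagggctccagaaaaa
Ihh: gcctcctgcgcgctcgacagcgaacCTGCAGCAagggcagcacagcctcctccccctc
Katnbl1: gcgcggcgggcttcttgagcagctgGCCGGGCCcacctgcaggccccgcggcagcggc

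**Figure D4:**
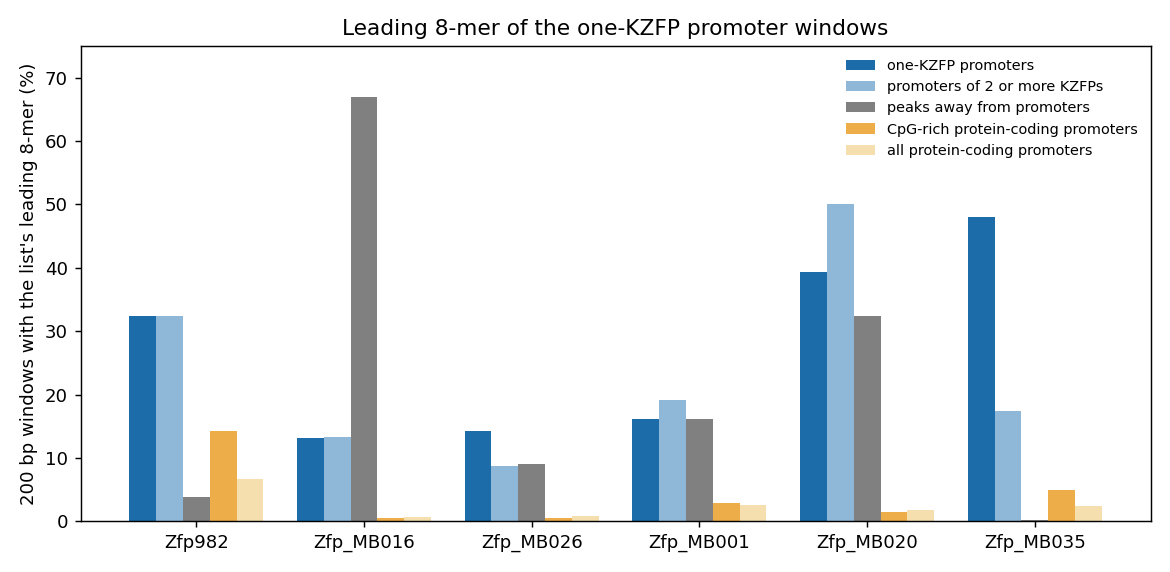
Share of 200 bp windows holding each KZFP's leading 8-letter word, for 6 KZFPs. Bars from left to right are one-KZFP promoters, promoters of 2 or more KZFPs, peaks away from promoters, CpG-rich promoters and all promoters. The Zfp_MB016 word is in 13.2% of exclusive promoter windows and 66.9% of windows away from promoters, and the Zfp982 word in 32.3% and 3.80%.

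Zfp_MB003, with the weakest peaks of the large lists, had no word of its own that stood as far apart: CCCGGAGC was in 14 of 124 windows (11.3%), against 5.06% of CpG-rich promoters. Of 8 words of general promoter factors that were counted, 5 had a higher share than in all promoters and 3 a lower one. The higher ones included CCGGAAGT, bound by ETS factors, in 12 of 124 windows (9.68%, against 3.75% of all promoters), CACGTG, the E-box, in 15 (12.1%, against 5.64%), and AAGATGGC, bound by YY1, in 8 (6.45%, against 2.31%). The lower ones were GGGCGGGG of SP1 (11.3%, against 17.5%), CCAATCA of NFY (0.806%, against 6.38%) and TGAGTCA of AP1 (0.806%, against 3.06%). In Zfp982 windows the ETS, E-box and YY1 words were at 2.97%, 6.96% and 1.55%. They were at 8.33%, 11.1% and 0% in the 36 Zfp981 windows, and at 0%, 10.7% and 0% in the 28 Zfp_MB020 windows. Shares of these words in CpG-rich promoters were not measured. A match to such a word is not evidence that the factor was there.

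The genes were then read by function, in lists of gene symbols. Counts are set beside the 15.7% of all promoters that had exactly 1 KZFP and the 3.33% that had 2 or more, without a test. All promoters include 1539 chemoreceptor genes and 650 genes of tandem families, few of which had summits. The shares over all promoters would be higher without them, so lists slightly above these shares are not set apart. For single KZFPs the share of all promoters was 8.77% for Zfp982, 3.12% for Zfp_MB016, 1.12% for Zfp_MB026, 0.721% for Zfp_MB003 and 0.457% for Zfp_MB001. CpG content of the lists was not measured.

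Among 35 genes of the KAP1 silencing machinery, 8 had exactly 1 KZFP (22.9%), 5 had 2 or more and 22 had none. Zfp982 alone was at 6 of them (17.1% of the list). These were Sumo2 (25.8), a modifier of KAP1, and the DNA methyltransferase genes Dnmt3a (16.1) and Dnmt3b (12.7). The others were the H3K9 methyltransferase genes Ehmt2 (14.9) and Ehmt1 (14.6), and Kdm1a (13.8), an H3K4 demethylase. Zfp_MB012 was alone at Atf7ip (16.0), the partner of SETDB1, and Zfp_MB016 at Chaf1b (27.1), a histone chaperone subunit. All 6 Zfp982 summits were within 130 bp of the start.

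Among 25 pluripotency regulators, 7 had exactly 1 KZFP (28.0%), 3 had 2 or more and 15 had none. Zfp982 was alone at Sall1 (26.1), Otx2 (24.1), Fgf4 (12.8) and Tbx3 (10.4), 16.0% of the list. Otx2 and Tbx3 are counted again among the developmental factors below. Zfp_MB016 was alone at Lin28a (27.7), which blocks let-7 maturation, Zfp_MB005 at Nr5a2 (14.8) and Zfp_MB003 at Esrrb (5.01, summit 990 bp downstream). Among 32 germline genes 5 had exactly 1 KZFP (15.6%) and none had 2 or more. Zfp982 was at Taf7l (17.4), Smc1b (13.9), Tdrd6 (12.7) and Dazl (10.5), 12.5% of the list, and Zfp_MB016 at Meioc (12.96). Taf7l is counted again among the RNA polymerase and general factors below.

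The Zfp982 share of housekeeping lists lay above 8.77% in some lists and below it in others. Of 91 genes with the symbols of translation factors 20 had exactly 1 KZFP (21.98%) and 6 had 2 or more. Zfp_MB016 was alone at 9 (9.89%, against 3.12% of all promoters), with Eif3c (104.0) and Eif4ebp2 (40.6) the strongest. Zfp982 was alone at 6 (6.59%, against 8.77%), with Eif4a3 (26.4) the strongest. Some of these genes may share only the symbol. Of 121 genes of RNA polymerases and general factors 21 had exactly 1 (17.4%). Zfp_MB016 was at 8 (6.61%), among them Polr2l (38.1) and Polr1b (37.2), and Zfp982 at 7 (5.79%). Zfp_MB003 was at 4, among them Polr2a (5.03), the largest subunit of RNA polymerase II, and Zfp_MB001 at Taf6l. Of 126 splicing factors 25 had exactly 1 (19.8%). Zfp982 was at 10 (7.94%), led by Rbm24 (53.1), Zfp_MB003 at 5, led by Sf3b1 (6.53), and Zfp_MB026 at 4, led by Snrpe (21.6).

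Of 164 proteasome and ubiquitin genes 39 had exactly 1 KZFP (23.8%), with Zfp982 at 22 (13.4% of the list, against 8.77% of all promoters). The strongest of these was Usp7 (100.7), a deubiquitinase, followed by Ube2q2 (64.7). Zfp_MB016 was at 7 of them, led by Psmb2 (69.5), a proteasome core subunit, and Cul3 (63.4), a ubiquitin ligase scaffold. Of 92 chaperones 21 had exactly 1 (22.8%), 12 of them with Zfp982, among them Dnajb5 (66.2) and Hspa8 (25.9), the constitutive Hsp70. Of 100 oxidative phosphorylation genes 16 had exactly 1 (16.0%), with Zfp982 at 8 (8.0% of the list), led by Ndufaf4 (110.6) and Atp5f1d (102.4). Of 136 genes with the symbols of replication and cell cycle genes 24 had exactly 1 (17.6%), 13 with Zfp982 (9.56% of the list). Cdc34 (50.8), a ubiquitin-conjugating enzyme, was the strongest of the 13. Some of the 13 share only the symbol: Cdc42ep3, Cdc42bpg and Cdc42bpb are effectors of the GTPase CDC42, Cdk5r1 activates the neuronal kinase CDK5 and Cdc73 belongs to the PAF1 complex. Of 37 aminoacyl-tRNA synthetases 5 had exactly 1 (13.5%): Vars1 (53.6) and Fars2 (12.1) with Zfp982, Aars1 (22.3) with Zfp_MB026, Farsb (17.1) with Zfp986 and Wars1 (5.82) with Zfp_MB003. Of 376 solute carriers 67 had exactly 1 (17.8%), led by Slc39a10 (88.4, a zinc importer) with Zfp_MB016 and Slc16a3 (75.5, a lactate exporter) with Zfp982.

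Of 181 homeobox and other developmental factors 34 had exactly 1 KZFP (18.8%), 144 had none and 3 had 2 or more (1.66%, against 3.33% of all promoters). Zfp982 was alone at 27 (14.9%, against 8.77%), among them Pitx1 (47.6), Hoxd9 (43.6), Foxi3 (34.2) and Foxk1 (26.8). Zfp_MB016 was at Hoxa9 (41.4), Irx3 (25.2) and Irx6 (12.5), Zfp_MB001 at Pax6 (11.8), Zfp_MB020 at Foxp4 (19.02), Zfp_MB023 at Six3 (19.9) and Zfp_MB013 at Foxl2 (5.11).

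Few promoters of chemoreceptor genes and of families with tandem copies had summits. Of 1539 chemoreceptor genes 6 had exactly 1 KZFP (0.390%) and none had 2 or more. Zfp_MB026 was at 4 of the 6, Tas2r144 (19.7), Or2t46 (16.9), Or52e19b (11.3) and Or52e19 (10.4), Zfp_MB020 at Or2b11 (11.6) and Zfp982 at Or2t29 (10.1). Of 650 genes whose symbols match families with many tandem copies, among them the cytochromes P450, serpins and UDP-glycosyltransferases, 9 had exactly 1 (1.38%), 7 of them with Zfp982, led by Cyp2u1 (62.0). Cyp2u1, Cyp20a1, Cyp1b1 and Ugt8a match these symbols but are not recent tandem copies.

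**Figure D5:**
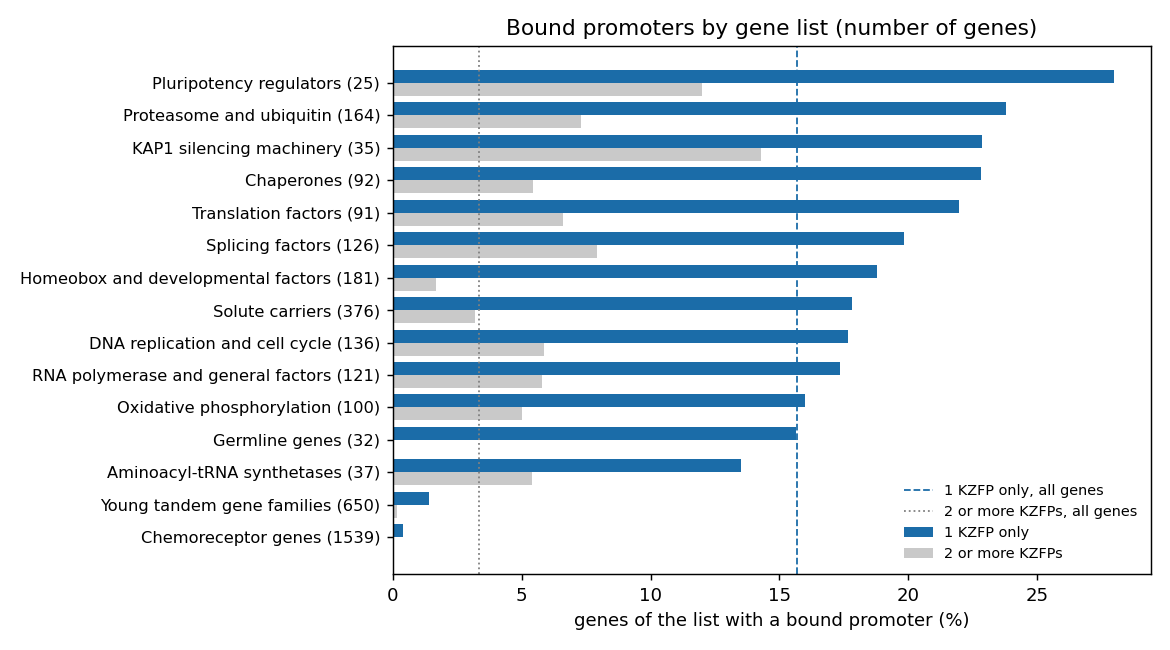
Percentage of genes in each list whose promoter was bound by 1 KZFP only (blue) or by 2 or more KZFPs (grey), with the number of genes, matched by symbol, in parentheses. Dashed and dotted lines give the same for all 20797 promoters, 15.7% and 3.33%. Pluripotency regulators have the highest blue bar (28.0%) and chemoreceptor genes the lowest (0.390%).

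By chromosome, the share of promoters bound by exactly 1 KZFP lay between 11.9% on chromosome 7 and 19.7% on chromosome 8 among the autosomes. It was 10.1% on the X chromosome (96 of 946) and 0 of 152 on Y. On chromosome 4, which carries the KZFP cluster itself, it was 17.1% (213 of 1249).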

How the data were processed

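The authors aligned paired reads of anti-HA ChIP-seq from F9 cells to GRCm39 with BWA, which places a read with several equally good positions at 1 of them at random, kept primary alignments with SAMtools 1.19, and called peaks with MACS2 2.2.7.1 against the input of the batch. They removed peaks overlapping an empty-vector peak and kept peaks with a q-value of 0.01 or less and a fold enrichment of 10 or more, or 5 or more for 10 of the lists. In the deposited peak lists the fold enrichment is a ratio over input, p- and q-values are given as −log10, the score column is the scaled −log10 q-value of the caller, and a further column gives the summit offset. Read totals are not in the lists, and the lists were not adjusted for depth. Samples of empty vector, input and HGTC8 stem cells (12 in all) were not used here.

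Summits on chromosomes (37 peaks on scaffolds were left out) were assigned to starts of protein-coding transcripts in GENCODE M39 within 1000 bp. The members, gene lists and words were chosen with earlier results of these data known. Named genes are the 5 members of highest fold enrichment for KZFPs with 10 or more members and the 2 highest for the others, genes of the fixed lists, and pairs at 1 summit. Tpst2, Ddit4, Gm8127 and the genes holding a motif or a leading word were named after their values were seen. One gene that the rule names is not reported here. Motifs and arrays came from the study's supplementary table and were searched on both strands in 200 bp windows of GRCm39, requiring 0 mismatches. Differences were tested over KZFPs with 5 or more summits by sign-flip permutation (100000 draws, or exact for fewer than 10 KZFPs). Intervals are exact (Clopper-Pearson, 95%), and a count of 0 was given a limit of 3 counts. Python 3.11.15, pandas 2.3.3, numpy 2.4.6 and scipy 1.17.1 were used, and the scripts were tested on simulated data. Alternatives varied the distance, starts, thresholds, windows, motif, mismatches and lists.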

Additional observations from a re-analysis of the deposited data

How the results depend on the processing

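The number of promoters with summits from exactly 1 KZFP stayed between 2774 and 3607 under 11 of the 13 alternatives, against 3264. It was 1919 when every list was held to a fold enrichment of 15, with 1608 of the 3264 kept, since fewer peaks entered, and 1848 without the Zfp982 list, since that list held most members. Differences from peaks away from promoters kept their sign and their side of the threshold under every alternative run. Their smallest size was -7.21 percentage points for the RCADE motif (p = 0.00829, permutation test over 13 KZFPs) and -28.7 points for repeated words with 100 or more copies. Against shared promoters, the motif difference turned to 0.417 percentage points with 1 mismatch (p = 0.924, permutation test). The CpG difference was 0.00386 in 100 bp windows (p = 0.810, permutation test) and -0.0276 in 400 bp windows, past the threshold before adjustment (p = 0.0494, permutation test). The cause of these shifts was not tested.

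The planned comparison of repeat-masked sequence was not run because the genome used here carries no masking, and the count of 24-base words replaced it, chosen after seeing the data, as were its alternatives, the count without the lists with a cutoff of 5 (3154) and the count with the excluded gene families kept (3412). No paired analysis was possible because each KZFP has 1 library, so no replicate numbers pair samples; the classes of summits were compared within each KZFP. Depth differed between libraries and was not equalised, so exclusive binding means only that no other list passed its threshold there, and 1 library per KZFP leaves differences between KZFPs without replicate error.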
